A study of Mus musculus with 10 samples.

Results

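Cytosolic ribosomal protein genes encode the proteins that fold with ribosomal RNA into the large and small subunits of the ribosome. The members described here were the protein-coding genes of the deposited table whose names start with Rpl or Rps and a digit, together with Rplp0, Rplp1 and Rpsa, while the Rps6k kinase genes were left out. They numbered 45 of 3480 listed genes, with 25 of the large and 20 of the small subunit. RNA was sequenced from the tibialis anterior, a shin muscle made mostly of fast fibers, of 5 FoxP1iSkmTg mice and 5 Control mice. FoxP1iSkmTg mice had the genotype FoxP1flSTOP x HSA-MerCreMer, in which the human skeletal actin promoter drives a tamoxifen-activated Cre recombinase in skeletal muscle and Cre removes a stop cassette in front of a Foxp1 transgene. Control mice carried FoxP1flSTOP without Cre. Both groups consisted of female mice aged 13 to 18 weeks that received 80 mg/kg tamoxifen on 4 days. As no group carried MerCreMer without the Foxp1 transgene, an effect of Foxp1 and an effect of activated Cre cannot be told apart for any gene below.

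A ribosome takes its proteins in fixed proportion, and their mRNAs are among the most abundant of most cells. Many of these mRNAs begin with a run of pyrimidines at the 5′ end, the terminal oligopyrimidine tract, through which mTORC1 signaling governs their translation. Skeletal muscle depends on its ribosome content for protein synthesis, and it also expresses Rpl3l, a paralog of Rpl3 found in striated muscle. Of a list of 77 core ribosomal protein genes, 44 were listed in the table and 33 were not. Of the large subunit 24 of 46 were listed and of the small subunit 20 of 31, and Rpl3l was the remaining member. Rpl3, Rpl11, Rplp2, Rps14 and Rps19 were among the 33 genes not listed. The table holds only genes whose unadjusted p lay under 0.05 when the authors compared these mice, so that a low p was the condition for being listed and the unlisted genes are not described here.

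The sequence near the annotated start is shown for the 7 members past the test threshold that had a RefSeq start window (GRCm38.p6). Each line gives 30 bases, 5′ to 3′ on the strand of the gene, around its longest run of C and T between 30 bases before and 50 after the annotated start, and the capitals mark that run.
Rpl31 (chr1:39367824-39367853, plus strand): ctcgccacaCCTCTTCCTCCTCgcctcccc
Rpl9 (chr5:65391383-65391412, minus strand): acgaaagacgTTCTCTCTTTgccccatcta
Rplp0 (chr5:115559466-115559495, plus strand): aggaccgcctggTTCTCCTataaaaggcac
Rps2 (chr17:24720083-24720112, plus strand): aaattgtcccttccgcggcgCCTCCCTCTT
Rps3a1 (chr3:86142623-86142652, minus strand): acgtagacggcgCTCCCCgcccggctcgcg
Rps4x (chrX:102189342-102189371, minus strand): cgcgcagcctccgaccctaaTTTCTTCgtt
Rpsa (chr9:120127774-120127803, plus strand): tccggccgcccgTCCTTTCgcgctacccgg
The run was 13 bases long in Rpl31, 10 in Rpl9, 7 in Rplp0, Rps4x and Rpsa, and 6 in Rps3a1. In Rps2 it was at least 10 bases long, since it reaches the end of the sequence searched. Relative to the RefSeq start, its first base lay at -18 in Rpl31, 11 in Rplp0, 20 in Rpsa, 28 in Rps3a1, 29 in Rpl9, and 40 in Rps2 and Rps4x. None of these runs begins at the annotated start, 5 of the 7 windows begin after it, and the start used in these muscles was not measured, so the runs are not shown to be terminal tracts.

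Foxp1, the forkhead transcription factor gene carried by the transgene (chromosome 6, 98925338 to 99522721, mm10), stood at 371, 232, 390, 270 and 260 normalized counts in Control replicates 1 to 5. In FoxP1iSkmTg replicates 1 to 5 it stood at 5352, 2163, 5813, 1423 and 1289. Every FoxP1iSkmTg mouse lay above every Control mouse, and the log2 fold change was 3.39 ± 0.44 (SE, adjusted p = 0.000631, quasi-likelihood test of edgeR). Adjusted p-values here and below are two-sided and adjusted by Benjamini-Hochberg over 15846 genes, the number in the authors' own adjustment. Normalized counts are the counts of reads divided by the size factor of the library. Counts over the listed genes came to between 6620970 and 8737660 reads per mouse, which is not the sequencing depth because the table is a selection of genes. Of 6 skeletal muscle marker genes 5 were listed, and all 5 had a fold change below 0. Of these, only Acta1 and Pvalb passed the test, with log2 fold changes of -0.63 and -0.50 (adjusted p = 0.00216 and 0.0125). No endothelial, erythroid or fibro-adipogenic marker was listed. Of 3 satellite cell markers only Itga7 was listed, and it rose by 0.69 on the log2 scale (adjusted p = 0.000163), which does not measure the number of these cells. Of 5 macrophage markers only Cd14 was listed, at 8.33 to 27.1 normalized counts in Control and 9.62 to 58.7 in FoxP1iSkmTg mice, and of 5 lymphocyte markers only Cd3e, at 5.02 to 21.1 and 12.9 to 27.8, and neither passed the test. Of 3 adipocyte markers Car3, which muscle fibers also express, fell by 1.38 on the log2 scale (adjusted p = 0.00118) and Plin1 did not pass (adjusted p = 0.23). The part of cell composition in the results below was not tested, and in whole muscle fewer cells of a type and less RNA per cell cannot be told apart.

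The main comparison asked how ribosomal protein mRNAs stood in muscle that overexpressed Foxp1. All 45 listed members had a lower fitted level in FoxP1iSkmTg mice, against 49.8% of the 3115 listed genes that could be tested. The differences were small, with a median log2 fold change of -0.20 and a range of -0.36 for Rps20 to -0.14 for Rpl26. In percent of the Control level the median change was -13.0% and the range ran from -22.0% to -9.29%. At an adjusted p under 0.05, 10 members fell by edgeR, which is 22.2% of members beside 19.8% of listed genes lower, and 0 rose, beside 17.5% of listed genes higher. The share of members past the threshold was therefore near that of the table as a whole in this fit, and it was 13.3% beside 18.2% with TMM factors and 33.3% beside 26.7% by DESeq2. In 13 members every FoxP1iSkmTg mouse lay below every Control mouse, 28.9% of members beside 22.4% of listed genes. No member rose at an unadjusted p under 0.05 by edgeR or at an adjusted one by DESeq2. An unadjusted p under 0.05 by edgeR was reached by all 45 members and by 3004 of the 3115 tested genes, since a low p is what listed them. Members varied together from mouse to mouse within groups, with a median correlation of 0.593 over the 990 pairs of members across 10 mice, so the 45 directions are not 45 separate observations.

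**Figure D1:**
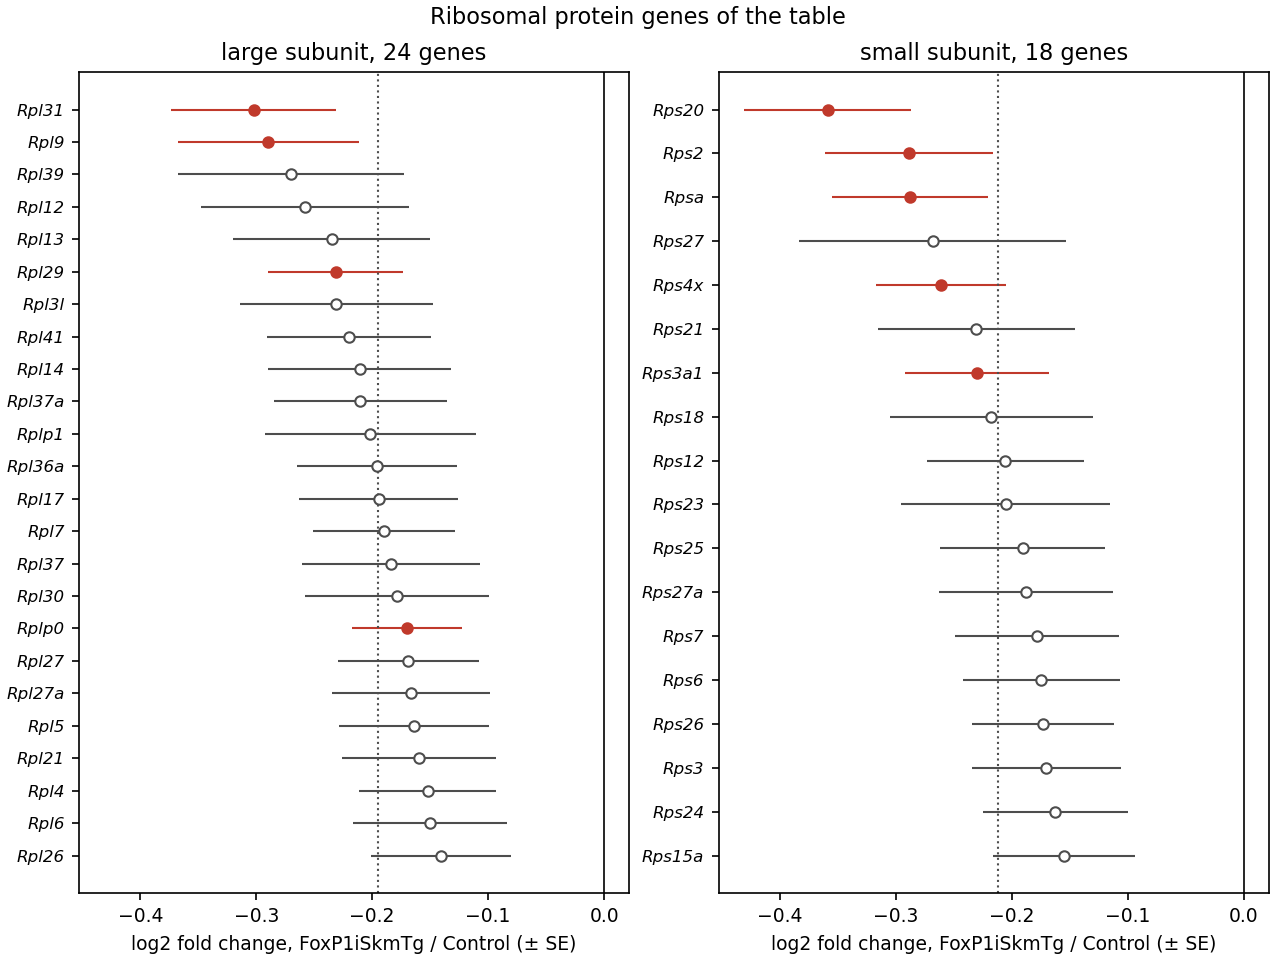
Log2 fold change of FoxP1iSkmTg over Control for 24 large subunit members (left) and 18 small subunit members (right), with bars for the standard error. Filled red points mark members with an adjusted p under 0.05, the solid line marks 0 and the dotted line the median over all members of each subunit, and all 42 points lie to the left of 0.

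The subunits had near-equal medians. The 25 large subunit members had a median log2 fold change of -0.20 and the 20 small subunit members one of -0.21, a difference of -0.02 (small minus large). By the test, 4 large subunit members fell, which is 16%, and 6 small subunit members, which is 30%, and both shares stand beside the 19.8% of listed genes that fell. The groups of mice did not overlap for 7 large and 6 small subunit members, which is 28% and 30%, beside 22.4% of listed genes. Whether the subunits differed was not tested, since genes that share the mice are not replicates.

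Among the small subunit genes, Rps20, which encodes a protein of the head of the subunit, had the largest fold change of all members. Rps20 (chromosome 4, 3831334 to 3835665) stood at 2280, 2399, 2153, 2193 and 2694 normalized counts in Control replicates 1 to 5 and at 1739, 1896, 1733, 1980 and 1790 in FoxP1iSkmTg replicates 1 to 5. All FoxP1iSkmTg values lay below the lowest Control value, and the log2 fold change was -0.36 ± 0.07 (SE, adjusted p = 0.0099, edgeR). Rps4x is the X-linked gene of ribosomal protein S4 (X, 102184941 to 102189394). It gave 3521, 3762, 3780, 3681 and 4113 in Control and 3036, 3246, 3181, 3254 and 3018 in FoxP1iSkmTg mice. Its groups did not overlap either, and it fell by 0.26 ± 0.06 on the log2 scale (adjusted p = 0.0141). The calls of Rps20 and Rps4x held when any single mouse was left out, with the highest adjusted p of these fits at 0.0293 for Rps20 and 0.0359 for Rps4x.

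Rpsa encodes a small subunit surface protein that was first named as a laminin receptor (chromosome 9, 120127689 to 120132369). It stood at 6420, 7054, 6771, 6666 and 7257 normalized counts in Control mice and at 4856, 5493, 5795, 6139 and 5712 in FoxP1iSkmTg mice. The groups did not overlap, FoxP1iSkmTg replicate 1 was the lowest, and the log2 fold change was -0.29 ± 0.07 (SE, adjusted p = 0.0220, edgeR). Rps2, a protein near the mRNA entry site and the most abundant small subunit member by FPKM, stood at 9429, 11029, 8727, 10141 and 10397 normalized counts in Control mice. Rps2 (chromosome 17, 24718116 to 24721929) gave 7646, 7658, 8928, 8056 and 8412 in FoxP1iSkmTg mice. Here the groups overlapped, since FoxP1iSkmTg replicate 3 lay above Control replicate 3, and the log2 fold change was -0.29 ± 0.07 (adjusted p = 0.0307). Rps3a1 (chromosome 3, 86137940 to 86142702), a further small subunit gene, gave 4446, 4817, 4371, 4580 and 4881 in Control and 3530, 3857, 3986, 4277 and 4042 in FoxP1iSkmTg mice. It fell by 0.23 ± 0.06 on the log2 scale (adjusted p = 0.0438), with no overlap between groups.

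Leaving out Control replicate 2, Control replicate 5 or FoxP1iSkmTg replicate 2 ended the call of Rpsa, with an adjusted p of up to 0.0589. Rps2 kept its call in 4 of 10 such fits, those without Control replicate 1 or 3 or FoxP1iSkmTg replicate 3 or 5, and Rps3a1 in 1 of 10, that without FoxP1iSkmTg replicate 4, with adjusted p of up to 0.0816 and 0.105 in the others.

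**Figure D2:**
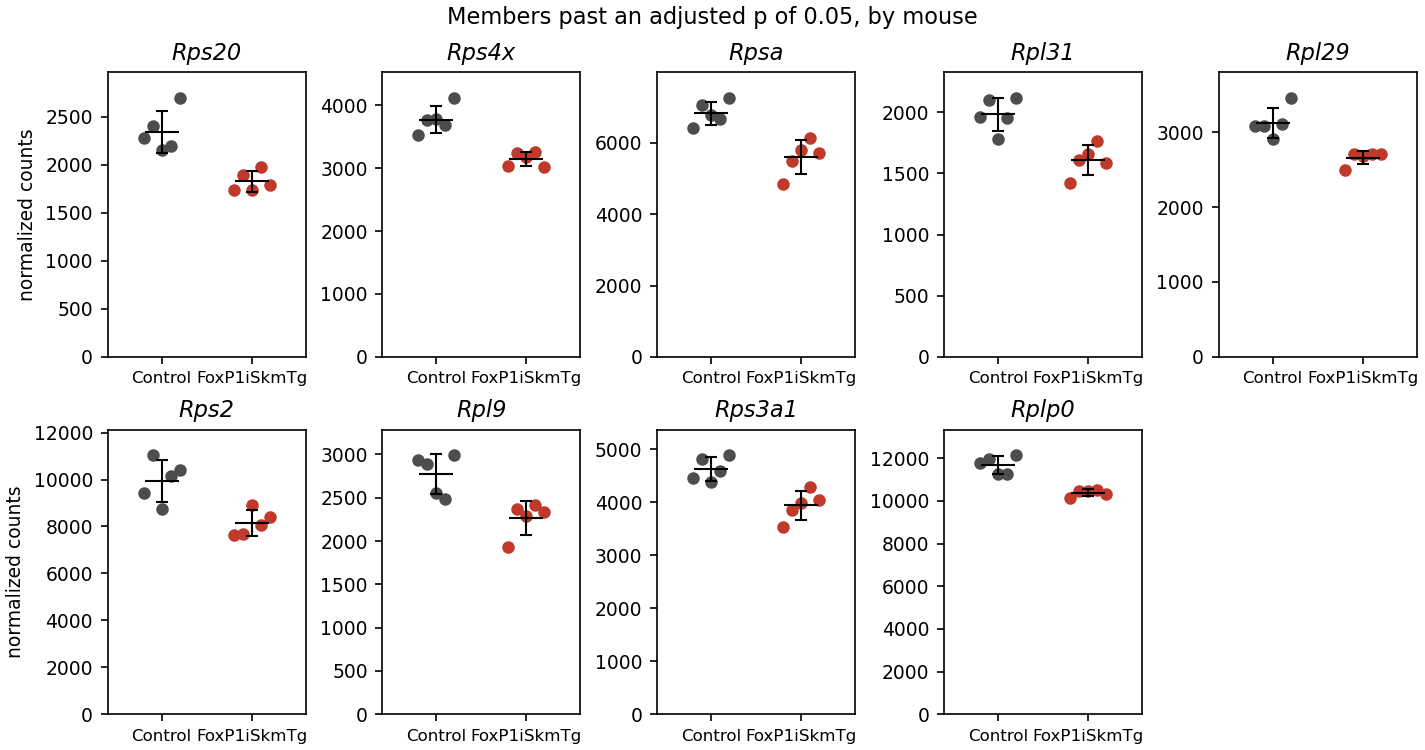
Normalized counts of 9 members past an adjusted p of 0.05, with a point for each mouse and bars for the mean ± SD of 5 Control (grey) and 5 FoxP1iSkmTg mice (red). The groups overlap for Rps2 and for no other gene shown, and each axis starts at 0.

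Of the large subunit, Rpl31, a protein beside the exit of the nascent peptide tunnel, had the largest fold change. Rpl31 (chromosome 1, 39367842 to 39371911) stood at 1960, 2103, 1783, 1956 and 2116 normalized counts in Control mice and at 1423, 1609, 1661, 1764 and 1586 in FoxP1iSkmTg mice. Each FoxP1iSkmTg mouse lay below each Control mouse, and the log2 fold change was -0.30 ± 0.07 (SE, adjusted p = 0.0221, edgeR). Rpl29, a small protein of the large subunit (chromosome 9, 106429454 to 106431568), gave 3075, 3077, 2901, 3102 and 3452 in Control and 2498, 2708, 2682, 2701 and 2704 in FoxP1iSkmTg mice. Its groups were apart, with a log2 fold change of -0.23 ± 0.06 (adjusted p = 0.0305). Rpl9 (chromosome 5, 65388364 to 65391444) gave 2935, 2886, 2556, 2488 and 2990 in Control and 1926, 2366, 2286, 2418 and 2341 in FoxP1iSkmTg mice. The highest FoxP1iSkmTg mouse was just under the lowest Control mouse, and Rpl9 fell by 0.29 ± 0.08 on the log2 scale (adjusted p = 0.0438).

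The stalk of the large subunit recruits translation factors that use GTP, and it is formed by Rplp0 at its base and by pairs of the acidic proteins Rplp1 and Rplp2. Rplp0 (chromosome 5, 115559467 to 115563727) stood at 11785, 11983, 11273, 11242 and 12135 normalized counts in Control mice and at 10130, 10478, 10451, 10519 and 10336 in FoxP1iSkmTg mice. The groups did not overlap although the change was the smallest of the called members. Rplp0 had a log2 fold change of -0.17 ± 0.05 (SE, adjusted p = 0.0493, edgeR). Rplp1 did not pass, at 4168 ± 594 normalized counts in Control against 3625 ± 145 in FoxP1iSkmTg mice (SD, n = 5 each, adjusted p = 0.248). Its lowest value was 3269 in Control replicate 3, below all FoxP1iSkmTg mice. Rpl12, which binds at the base of the stalk, had a log2 fold change of -0.26 ± 0.09 without passing (adjusted p = 0.116).

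With 9 mice in place of 10, Rplp0 lost its call whichever mouse was left out (adjusted p 0.0576 to 0.116), with a log2 fold change of -0.18 to -0.16, Rpl29 kept it in 2 of 10 such fits (without Control replicate 3 or FoxP1iSkmTg replicate 4, otherwise up to 0.0711) and Rpl9 in 3 (without Control replicate 3 or 4 or FoxP1iSkmTg replicate 4, otherwise up to 0.106), and Rpl31 lost it without Control replicate 2 or Control replicate 5, with an adjusted p of up to 0.0622.

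Of the members described here that did not pass, Rpl41 (adjusted p = 0.0874), Rpl7 (0.0902) and Rps12 (0.0947) lay closest to the threshold. On the other side, Rplp0 at 0.0493 was the last to pass. Rpl27 and Rpl4 had no overlap between the groups of mice without passing. For Rpl4, a protein of the wall of the peptide tunnel, Control mice stood at 9438, 9688, 9446, 9526 and 10476 normalized counts and FoxP1iSkmTg mice at 7883, 8607, 8912, 9338 and 8975. The highest FoxP1iSkmTg mouse lay just under the lowest Control mouse, and the adjusted p was 0.163.

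Members that did not pass included proteins with known further roles. Rps6, the substrate of the S6 kinases downstream of mTORC1, had a log2 fold change of -0.17 ± 0.07 (SE, adjusted p = 0.162, edgeR). Rpl5, which binds 5S ribosomal RNA and with it can inhibit Mdm2, had one of -0.16 ± 0.06 (adjusted p = 0.172). Rps27a, which is made as a fusion with ubiquitin, had one of -0.19 ± 0.08 (adjusted p = 0.179). Rps3, at the mRNA entry site, and Rps26, at the mRNA exit, had log2 fold changes of -0.17 each. Rpl17, Rpl26 and Rpl39 sit around the peptide tunnel, and their log2 fold changes were -0.19, -0.14 and -0.27. Rpl39 was the member with the fewest counts, with 507 ± 50.1 normalized counts in Control against 420 ± 49.8 in FoxP1iSkmTg mice (SD, n = 5 each), its groups overlapped, and its adjusted p was 0.129. Rps27 had the widest error of the members, with a log2 fold change of -0.27 ± 0.11, and FoxP1iSkmTg replicate 4 at 1836 lay above 4 of the 5 Control mice (adjusted p = 0.217). Rpl37, Rps27 and Rps23 were the members in which a FoxP1iSkmTg mouse exceeded the Control mean. The other members described here, which are Rpl6, Rpl13, Rpl14, Rpl21, Rpl27a, Rpl30, Rpl36a, Rpl37a, Rps7, Rps15a, Rps18, Rps21, Rps24 and Rps25, had log2 fold changes between -0.23 for Rpl13 and -0.15 for Rpl6, with adjusted p between 0.122 and 0.239.

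Rpl3l stood out by its biology, since it replaces Rpl3 in ribosomes of striated muscle. It gave 8649, 9441, 7836, 8530 and 8573 normalized counts in Control mice and 6257, 7792, 6711, 7448 and 8458 in FoxP1iSkmTg mice. FoxP1iSkmTg replicate 5 lay within the Control range and the other FoxP1iSkmTg mice below it. Its log2 fold change was -0.23 ± 0.08 (SE) and did not pass (adjusted p = 0.13, edgeR). Levels of Rpl3 itself were not analysed here.

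Members differed far more among themselves than between groups. Per length of the gene, as FPKM of Control mice, the level ran from 15.3 for Rps15a to 472 for Rplp1, with a median of 82.2. Rplp1 (472 in Control and 411 in FoxP1iSkmTg mice), Rplp0 (398 and 354) and Rps2 (307 and 251) had the highest FPKM, and Rpl3l (296 and 252) came next. Rplp1 in single Control mice ranged from 370 to 541 FPKM and overlapped Rplp0, at 384 to 414, so the order of these neighbours was not resolved. Rps2, at 270 to 340 FPKM, overlapped Rpl3l, at 270 to 325, in the same way. The lengths are the deposited ones, from 499 bases for Rplp1 to 6270 for Rps15a, and were not checked against the transcripts expressed. Of the 10 called members, Rps20 had the lowest FPKM, at 32.5 in Control mice, with a change of -22.0%, and Rplp0 the highest, at 398, with a change of -11.1%.

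Listed genes within the range of lengths or levels of the members give a further comparison, although they were not matched to the members. The median length was 3672 bases in the first of these sets against 1734 for the members. Median Control FPKM was 31.3 in the second against 82.2 for the members. Among 1887 protein-coding listed genes within the range of lengths of the members, 45.7% had a fold change below 0 and 17.6% fell past the threshold. Among 724 such genes within their range of FPKM, 59.5% had one below 0, 28.9% fell past the threshold and 32.0% had every FoxP1iSkmTg mouse below every Control mouse. The members' 22.2% and 28.9% were thus under the shares of the genes in that FPKM range. Their 45 of 45 below 0 stood above that group's 59.5%. Quartiles of the log2 fold change were -0.35 and 0.26 over the genes in that FPKM range, and -0.23 and -0.17 over the members. The median log2 fold change was -0.19 over the genes in that range, against -0.20 for the members. Over all tested genes, which rose and fell in nearly equal numbers, it was 0.13, and it turned to -0.09, -0.11 and -0.12 without FoxP1iSkmTg replicates 1, 2 and 3 and to -0.14 without the filter on low counts, so that the distance of the members from it ran from -0.36 to -0.06 over the fits made.

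Summed FPKM of the members came to 4991 ± 288 in Control mice, with a range of 4646 to 5381, and to 4309 ± 209 in FoxP1iSkmTg mice, with a range of 3947 to 4486 (SD, n = 5 each). The sums of the groups did not overlap. For the large subunit the sums were 3068 ± 190 and 2675 ± 133, and for the small subunit 1923 ± 101 and 1634 ± 82.1. The ratio of the large to the small subunit sum was 1.59 ± 0.03 in Control and 1.64 ± 0.04 in FoxP1iSkmTg mice, and here the ranges of 1.54 to 1.64 and 1.59 to 1.68 overlapped. As a share of the counts of all listed genes, members held 1.96% ± 0.147 (SD) in Control and 1.95% ± 0.0789 in FoxP1iSkmTg mice. The lower levels of the members are thus lower on the scale of the size factors of the authors and not relative to the summed counts of the listed genes, among which are abundant muscle genes that fell, such as Acta1 and Pvalb.

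**Figure D3:**
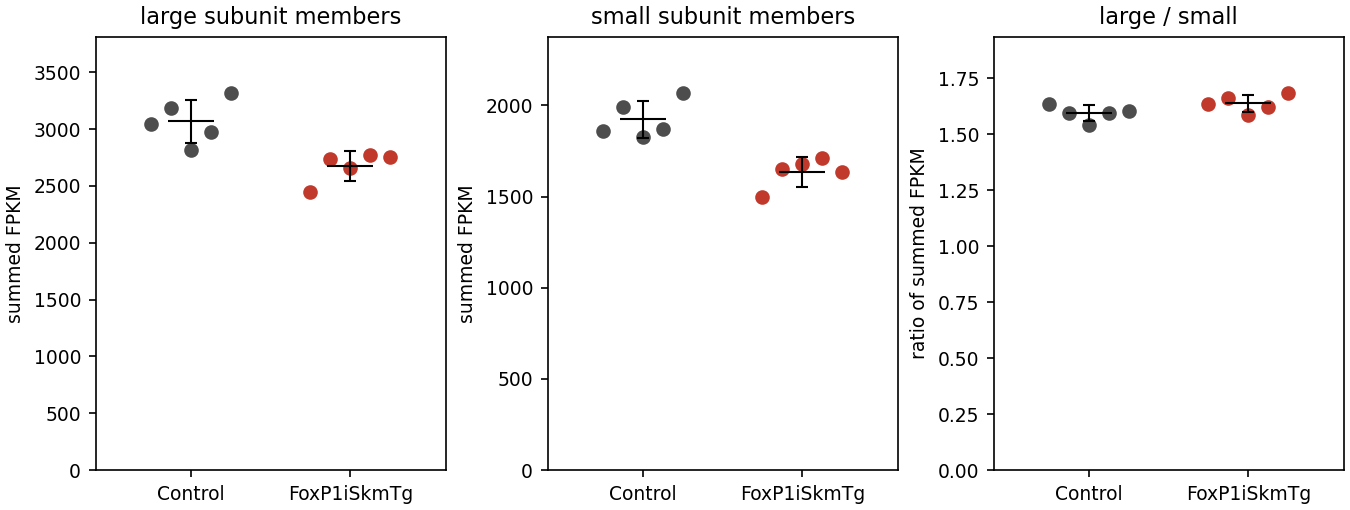
Summed FPKM of the 25 large subunit members (left) and the 20 small subunit members (middle), and their ratio (right), for each mouse, ordered by replicate number from left to right within a group, with bars for the mean ± SD of 5 mice. The sums of FoxP1iSkmTg mice lie below those of Control mice, whereas the ratios, from 1.54 to 1.68, overlap.

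From mouse to mouse the members moved together. Relative to the Control mean, the median member stood at 98.6%, 103%, 94.3%, 97.1% and 108% in Control replicates 1 to 5. In FoxP1iSkmTg replicates 1 to 5 it stood at 79.7%, 89.0%, 86.3%, 90.2% and 87.8%. The medians of the groups did not overlap. Control replicate 5 was the highest Control mouse in 37 of 45 members, and Control replicate 3 was the lowest in 22. FoxP1iSkmTg replicate 1 was the lowest of its group in 40 members and FoxP1iSkmTg replicate 4 the highest in 22. Foxp1 itself was highest in FoxP1iSkmTg replicates 3 and 1, at 5813 and 5352 normalized counts, and replicate 3 had the second lowest median of the members. Replicate 5 had the least Foxp1, at 1289, and the third lowest median, and with 5 mice no correlation was computed.

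**Figure D4:**
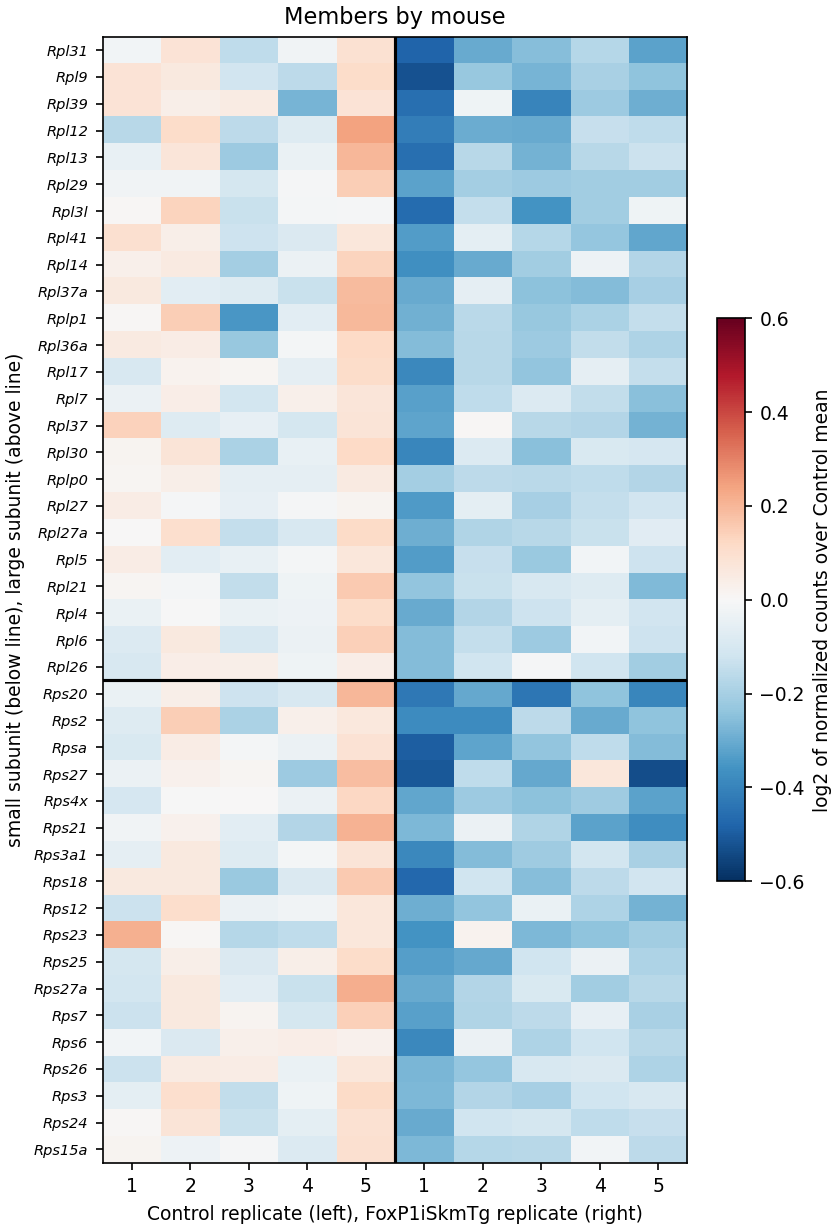
Log2 of the normalized counts over the Control mean for 42 members (rows, large subunit above the line and small subunit below it) in the 10 mice (columns, Control on the left and FoxP1iSkmTg on the right). Control replicate 5 is the reddest Control column and FoxP1iSkmTg replicate 1 the bluest of all, where it is the lowest of its group in 37 of 42 members shown.

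The number of members past the threshold changed with the mice that entered the fit. It was 10 without Control replicate 3 or FoxP1iSkmTg replicate 4, 7 without FoxP1iSkmTg replicate 3, 3 without Control replicate 5, 3 without Control replicate 2, 4 without FoxP1iSkmTg replicate 2, 5 without FoxP1iSkmTg replicate 1 and 6 without Control replicate 1, Control replicate 4 or FoxP1iSkmTg replicate 5, and with both Control replicate 5 and FoxP1iSkmTg replicate 1 left out only Rps20 passed, while all 45 fold changes stayed below 0 in each of these fits. With 1 mouse left out the share of listed genes that fell ran from 14.2% to 20.3% and that of members from 6.67% to 22.2%, and with both mice left out these shares were 14.0% and 2.22%.

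Fitted log2 fold changes of other genes of the translation machinery lay in both directions, though not all passed the test. Rack1, a protein of the small subunit that carries no ribosomal protein name, stood at a log2 fold change of -0.22 ± 0.07 (SE, adjusted p = 0.0691, edgeR). Of 18 further genes whose mRNAs carry a terminal oligopyrimidine tract, 5 were listed, 2 fell and none rose. Of all listed genes tested 19.8% fell and 17.5% rose, and a list this short cannot be told apart from these shares. Npm1, a nucleolar chaperone of ribosome assembly, fell by 0.23 ± 0.06 on the log2 scale (adjusted p = 0.0313), and Eif3f, a subunit of initiation factor 3, by 0.33 ± 0.09 (adjusted p = 0.0394). Pabpc1, the cytoplasmic poly-A binding protein, was at 0.20 ± 0.06 (adjusted p = 0.0518) and Eef1b2, an elongation factor subunit, at -0.16 ± 0.06 (adjusted p = 0.14).

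Of 37 genes of ribosome biogenesis 7 were listed, 1 rose and none fell, beside 17.5% of listed genes higher and 19.8% lower. The gene that rose was Nhp2, a protein of the box H/ACA particles that guide pseudouridylation, at 198 ± 29.4 normalized counts in Control against 263 ± 17.2 in FoxP1iSkmTg muscle (SD, n = 5 each, adjusted p = 0.0449, edgeR). Rrn3, an initiation factor of RNA polymerase I, had a log2 fold change of 0.19, Rrp12, which takes part in subunit export in yeast, of 0.33, and Emg1, a methyltransferase of 18S ribosomal RNA, of -0.23, with adjusted p of 0.0601, 0.0712 and 0.0549. Of 23 genes of mTORC1 and S6 kinase signaling 5 were listed, 1 rose and 1 fell, beside the same shares of listed genes. Eif4e, the cap-binding protein, fell from 1852 ± 63.3 to 1486 ± 82.7 normalized counts, with a log2 fold change of -0.32 ± 0.06 (adjusted p = 0.00533). Eif4ebp1, the repressor that binds it, rose from 438 ± 45.6 to 601 ± 54.5, with a log2 fold change of 0.45 ± 0.09 (adjusted p = 0.00883). In neither gene did the groups overlap, with Eif4e at 1769 to 1929 in Control and 1378 to 1604 in FoxP1iSkmTg mice, and Eif4ebp1 at 374 to 490 and 539 to 666. Mtor, the kinase itself, was at a log2 fold change of 0.27 (adjusted p = 0.101) and Sesn2, an inhibitor of mTORC1, one of 0.53 (adjusted p = 0.163).

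The members were chosen by name and biotype and not by sequence or position. They lie on 17 chromosomes, and 19 of them host 38 small nucleolar RNA genes within their bounds in GENCODE M21. None of these 38 was in the table, which held 3 other small nucleolar RNA genes. Reads from a processed pseudogene and from its parent gene can be confused, and 5 rows of the table carried names of ribosomal protein pseudogenes. Of these 4 were too low to test, and Rpl31-ps8 stood at 19.0 to 35.1 normalized counts in Control mice, beside a Control mean of 1983 for Rpl31, with a log2 fold change of -0.57 ± 0.23 and an adjusted p of 0.192. The sources used here do not say whether counting used strand, so that members which overlap other genes are uncertain, as are reads shared with pseudogenes.

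Start windows from RefSeq, 250 bases before and 50 after the annotated start, were found for 34 of 45 members. A run of at least 7 bases of C or T between 30 before and 50 after the start, read on the strand of the gene, was present in 31 of 34 members, which is 91.2%, against 45.7% of 17492 protein-coding genes and 18 of 24 unlisted ribosomal protein genes. It was present in 17 of 18 large and 14 of 16 small subunit members, and the lines printed above show such runs in 6 of the 7 called members, with the shorter run of Rps3a1 as the exception. The sequence CCGGAAG, a motif bound by ETS family factors, was found on either strand of the whole window in 16 of 34 members, which is 47.1%, against 12.9% of all protein-coding genes and 8 of 24 unlisted ribosomal protein genes. On the opposite strand the motif starts with C and T bases, so it can overlap a pyrimidine run. It lay in 4 of the 7 called members with a window, and 3 of these sites are shown because they lie before the RefSeq start, again with the motif or its reverse complement in capitals. In Rps2 and Rps3a1 the bounds of the gene in the table reach further upstream than the RefSeq start, and these sites lie inside them.
Rps2 (chr17:24719924-24719953, plus strand): tatttatacgtcCTTCCGGctggtgtaggg
Rps3a1 (chr3:86142660-86142689, minus strand): agattcttaaagCCGGAAGggcgaaagagc
Rpsa (chr9:120127566-120127595, plus strand): tcgccccagctaCTTCCGGcctggggtctg
Relative to the start, the first base of the motif lay at -9 in Rps3a1, -127 in Rps2 and -188 in Rpsa. The E-box CACGTG, a motif of Myc and clock factors, was found on either strand in 1 of 34 members, Rpl14, against 8.91% of all protein-coding genes and 5 of 24 unlisted ribosomal protein genes. The forkhead motif GTAAACA was found on either strand of the 250 bases before the start in 1 of 34 members, Rpl41, against 3.04% of all protein-coding genes and 0 of 24 unlisted ribosomal protein genes. A match describes the letters of a window, and binding was not measured.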

How the data were processed

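Poly-A RNA of 10 muscles was sequenced as paired ends. Per the labels, HISAT2 2.0.5, DESeq2 1.20.0 and genome build mm10 were used, whereas the study's methods name STAR and HTSeq, so the aligner is not settled, and strand use in counting was not given in the sources used here. Per gene and mouse, the authors deposited read counts as whole numbers, a normalized signal, which equals the count over the DESeq2 size factor of the library, and FPKM, which rest on a deposited gene length (another column). The FPKM carry the same scaling: the library totals they imply, 15510420 to 21989419, followed the size factors within -0.166% to 0.154% and were not taken as depth. The log2 fold change, p-values and adjusted p-values of the authors' own comparison were read only to learn how rows were selected (highest unadjusted p 0.04998) and that 15846 genes entered their adjustment. They are not reported. The table holds 3480 genes.

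Counts were fitted by quasi-likelihood in edgeR 4.0.16 (functions glmQLFit and glmQLFTest, R 4.3.3) on group alone, two-sided, with the deposited size factors, because factors computed on genes selected by p assume that most of these are unchanged. filterByExpr with a minimum count of 10 left 3115 genes, including all 45 members. P-values were adjusted by Benjamini-Hochberg over 15846 genes, taking genes not listed to have larger p. The SE is the size of the log2 fold change divided by the square root of F. The p-values rest on the spread between 5 mice in each group, which the fit moderates with the spread of the other fitted genes. Those genes were listed by p as well, and the effect of that selection on the spread was not tested. Only the edgeR fit on group alone was tested on simulated counts, with adjustment over the listed genes, and the other steps were not. Some members and genes that meet the naming rule are not reported here, although they are counted. Otherwise named are every called member, in each subunit the 3 largest fold changes and the 2 highest mean FPKM, Rplp0, Rplp1, Rpsa, Rpl3l, Foxp1 and up to 4 genes of each list. Other members were named to account for the rest. Members, lists and motifs were chosen with earlier results of these data known, and several widths of the start region were tried for the motifs. Alternatives were TMM factors, DESeq2 1.42.0, other filters, adjustment over listed genes, a replicate block and leaving out each mouse.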

Additional observations from a re-analysis of the deposited data

Results flagged for a closer look

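In each group of 5 mice, the gap of the highest or lowest mouse to its nearest neighbour was compared with the range of the group (Dixon's 95% critical value of 0.71). Of 98 groups examined 6 passed, against about 4.9 by chance.

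FoxP1iSkmTg replicate 1 was the lowest of its group and far from the others for Rpl29, at 2498 normalized counts (the nearest mouse stood at 2682), for Rpl9, at 1926 (2286), and for Rps24, at 3117 (3458). The same mouse had the lowest summed FPKM of the members, at 3947 (4338). Control replicate 4 was far below the other Control mice for Rpl39, at 418 normalized counts (518). Control replicate 5 was far above the other Control mice for Rpl4, at 10476 (9688). Without FoxP1iSkmTg replicate 1, 5 members (11.1%) and 15.3% of listed genes fell past the threshold, and without Control replicate 5, 3 members (6.67%) and 17.1% of listed genes, beside 22.2% and 19.8% with all mice.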

How the results depend on the processing

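All 45 members kept a fold change below 0 under every alternative, and none reversed. With 10 members past the threshold (4 large, 6 small) as reported, which is 22.2% beside 19.8% of listed genes lower, the number was 6 (1 large) with TMM factors on the listed genes (13.3% beside 18.2%), 15 (7 large) by DESeq2 (33.3% beside 26.7%), and 8 (2 large) among genes with a mean of at least 100 normalized counts (17.8% beside 19.7%). Adjusted over the listed genes only, which were selected by p, all 45 passed (25 large, 20 small), and 2979 listed genes passed (1497 higher, 1482 lower) in place of 1161 (544 higher, 617 lower). Without single mice the number ranged from 3 to 10, with 0 to 5 of the large and 3 to 7 of the small subunit. The listed genes past it ranged from 835 to 1230 (372 to 593 higher). Without both Control replicate 5 and FoxP1iSkmTg replicate 1, a choice made after seeing the data, 1 member passed (0 large, 1 small), and 712 listed genes (275 higher). Fewer mice enter these fits, and other causes were not tested. With a replicate block 2 members passed, Rps20 and Rpsa (0 large, 2 small), which is 4.44% beside 16.6% of listed genes lower. The replicate numbers gave no sign of pairing mice, with correlations of deviations between -0.0176 and 0.0344 and 1 of 5 numbers best matched with its own. The share of members past the threshold thus lay above or below that of listed genes depending on the fit.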
